A study of Mus musculus with 24 samples.

Results

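Expression of the nuclear-encoded genes of the oxidative phosphorylation complexes I to V was followed in mouse macrophages across genotype and interleukin 4 (IL4) time in culture, and across genotype in tumours. The genes were taken by symbol, as those starting with Nduf, Uqcr, Cox4 to Cox8 or Atp5 and the 4 genes Sdha, Sdhb, Sdhc and Sdhd. Of 92 such symbols among 23307 in each table, 86 had a mean of at least 1 FPKM (a read density corrected for transcript length and library size) in bone marrow-derived macrophages (BMDM) and 87 did in tumour-associated macrophages (TAM). Both tables shared 85 of these. Cox6a2 was taken in BMDM alone, Cox4i2 and Cox6b2 in TAM alone, and Cox7b2, Cox8b, Cox8c and Ndufa4l2 in neither. Just outside the limit in BMDM lay Cox6b2 at a mean of 0.268 FPKM, and just inside it lay Cox6a2 at 1.38 and Atp5s at 1.47 FPKM. In TAM, Cox6a2 lay just outside at 0.45 FPKM, and Atp5s at 1.01 and Ndufaf4 at 1.13 FPKM lay just inside.

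Oxidative phosphorylation takes place in the inner mitochondrial membrane. Complexes I and II pass electrons from NADH and succinate to ubiquinone, complex III passes them on to cytochrome c and complex IV to oxygen. Complexes I, III and IV pump protons as they do so, and complex V (ATP synthase) uses the proton gradient to make ATP. Alternative activation of macrophages by IL4 is known for greater reliance on mitochondrial respiration than classical activation. The subunits encoded in mitochondrial DNA were not analysed here.

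The BMDM came from the bone marrow of C57BL/6 mice labelled Tet2 knockout or wild type, were cultured for 7 days with L929-conditioned medium and M-CSF, and were moved to DMEM the night before stimulation. They received IL4 at 20 ng/ml for 10 or 24 h or were left untreated (0 h), with 2 libraries for each of the 6 genotype and time groups, called biological replicates in the design text. The TAM were CD11b+F4/80+ cells sorted from subcutaneous YUMM1.7 melanomas of male C57BL/6J mice aged 6 to 8 weeks at use, harvested at 4 weeks. Their 4 knockout libraries were labelled LysMcre +/wt, Tet2 fl/fl and their 4 wild-type libraries LysMcre wt/wt, Tet2 fl/fl, so that both carried the floxed allele, and Cre was driven by the LysM promoter of myeloid cells. The 4 libraries of 5-hydroxymethylcytosine in the series were not analysed here.

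Tet2 itself, an enzyme that oxidises 5-methylcytosine in DNA, was not lower at all times in the libraries labelled knockout. It had 4.02 and 4.48 FPKM in the untreated libraries labelled knockout, against 4.11 and 5.91 in wild type. At 10 h it had 7.22 and 8.19 FPKM, below the 8.74 and 8.81 of wild type, and at 24 h 11.3 and 10.3 FPKM, above the 9.38 and 9.82 of wild type. The differences were -0.18 ± 0.13, -0.17 ± 0.13 and 0.16 ± 0.13 on the log2 scale (SE), and none passed in limma (adjusted p = 0.576, 0.837 and 0.506). In TAM it had 14.4 to 19.0 FPKM in the libraries labelled knockout, against 7.75 to 16.1 in wild type (0.36 ± 0.22, limma adjusted p = 0.418). What was deleted from the gene is not stated in the labels, and these libraries are therefore called labelled knockout (KO) throughout. Total FPKM per library ran from 365098 to 557168 in BMDM and from 337972 to 464763 in TAM. The number of reads behind a value is not known. All 6 macrophage markers, among them Csf1r and Cd68, had a mean of at least 1 FPKM in both tables, with sums of 1170 to 1540 FPKM in BMDM and 1130 to 1300 in TAM. The neutrophil list summed to 918 to 17900 FPKM in TAM, with 5 of its 6 markers at a mean of at least 1 FPKM. That sum was above the macrophage sum in every TAM library except KO replicate 6 and wild-type replicate 8. The part of neutrophils in the TAM results was not tested. The muscle list, whose cells use Cox6a2 and Cox7a1, summed to at most 0.576 FPKM in BMDM and 1.06 in TAM, with Mb at 0 in both.

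Promoter sequence was read for the BMDM members to show the motifs of factors known to bind respiratory chain genes. RefSeq windows of 300 bases on GRCm38.p6, 250 before and 50 after each start, matched 73 of the 86 members with 79 windows, since 6 members had more than 1. Among those not matched were Ndufa2, Ndufaf6, Ndufb9, Ndufs1, Sdhc, Uqcrb, Uqcrc2, Uqcrq, Cox4i1, Cox6a2, Cox6c and Atp5a1. Both strands were searched with exact letters, where N stands for any base. The palindromic NRF1 consensus stood in 20 of the 79 windows (25.3%), and in 1356 of 21263 windows of all protein-coding genes (6.38%). The ETS motif of GABPA, CCGGAAG, stood in 17 (21.5%), against 11.6% of all windows. The YY1 motif AAGATGGCG stood in 9 (11.4%), against 1.83%, and the motif TCAAGGTCA of ERR alpha, the product of Esrra, in 2 (2.53%), against 0.334%. In no member window did matches of 2 different motifs overlap, and 38 of the 73 members held at least 1 match. Both ERR alpha matches were in Atp5g3 and Sdhd. The windows of all protein-coding genes were not limited to genes expressed in BMDM, as the members were. The shares therefore come from unlike sets, and expressed genes alone were not searched. A match of letters does not show that a factor binds there, and no binding was measured.

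For each complex, the 250 bases before the start are shown of the member with the most matches there, with matches in capitals. Where members tied, the one that rose more at 24 h of IL4 in wild type was taken. All 5 windows are on the minus strand and are printed 5′ to 3′ along the gene. Ndufb4, an accessory subunit of complex I (chr16:37654369-37654618), held 3 NRF1 matches, which begin 191, 79 and 22 bases before the start. Sdha, the flavoprotein of complex II (chr13:74350241-74350490), held 3 as well, at 98, 55 and 10 bases. Uqcr11 of complex III (chr10:80406822-80407071) held 1 ETS match at 66 bases. Cox6a1 of complex IV (chr5:115348959-115349208) held NRF1 matches at 162 and 117 bases and an ETS match at 16. Atp5h, the stalk subunit d of complex V (chr11:115419920-115420169), held an NRF1 match at 141 bases and an ETS match at 38.
Ndufb4: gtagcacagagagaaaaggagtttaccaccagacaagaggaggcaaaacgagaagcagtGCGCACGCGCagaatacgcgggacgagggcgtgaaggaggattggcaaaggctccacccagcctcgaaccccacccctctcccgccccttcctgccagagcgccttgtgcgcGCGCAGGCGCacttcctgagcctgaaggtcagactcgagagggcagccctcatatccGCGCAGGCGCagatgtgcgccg
Sdha: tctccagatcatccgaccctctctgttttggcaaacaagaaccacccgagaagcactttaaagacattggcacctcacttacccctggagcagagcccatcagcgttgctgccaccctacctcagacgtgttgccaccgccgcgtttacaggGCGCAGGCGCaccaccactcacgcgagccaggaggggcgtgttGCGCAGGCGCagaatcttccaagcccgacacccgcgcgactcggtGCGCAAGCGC
Uqcr11: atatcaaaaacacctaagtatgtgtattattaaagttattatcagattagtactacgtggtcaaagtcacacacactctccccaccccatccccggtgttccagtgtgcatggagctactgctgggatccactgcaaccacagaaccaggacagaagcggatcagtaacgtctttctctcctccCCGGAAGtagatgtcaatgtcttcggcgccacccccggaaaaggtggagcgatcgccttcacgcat
Cox6a1: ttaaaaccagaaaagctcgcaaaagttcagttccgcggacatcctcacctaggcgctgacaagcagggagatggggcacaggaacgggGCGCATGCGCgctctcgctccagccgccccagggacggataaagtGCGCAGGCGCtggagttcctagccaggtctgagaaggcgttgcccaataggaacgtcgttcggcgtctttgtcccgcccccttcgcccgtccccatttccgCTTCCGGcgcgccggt
Atp5h: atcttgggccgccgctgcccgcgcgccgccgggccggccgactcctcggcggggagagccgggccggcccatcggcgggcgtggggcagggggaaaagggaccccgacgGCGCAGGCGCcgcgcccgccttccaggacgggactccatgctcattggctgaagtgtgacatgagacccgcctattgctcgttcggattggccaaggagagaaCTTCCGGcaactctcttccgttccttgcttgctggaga

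Most members rose under IL4 in both genotypes. Each difference below is one of log2(FPKM + 1), followed by its standard error (SE) after the ± sign, and understates the change of genes at a low level. They were tested with limma over all 10510 BMDM genes that passed the filter on low values, and a member passed at an adjusted p (Benjamini-Hochberg) under 0.05. All 86 members passed the filter. After 10 h, 65 members rose and 3 fell in KO, where 24.2% of all tested genes rose and 14.6% fell, while 71 rose and 0 fell in wild type, where 28.2% of all tested genes rose and 14.2% fell. After 24 h, 66 rose and 1 fell in KO (26.5% and 17.1% of all tested genes), while 78 rose and 0 fell in wild type (29.7% and 20.3%). The median difference over members at 24 h was 0.77 in KO and 0.99 in wild type, beside 0.07 and 0.06 over all tested genes. Both treated libraries lay above both untreated ones at 24 h for 75 members in KO and 80 in wild type. The same held for 4811 and 3936 of the 10510 tested genes. At 10 h it held for 78 and 81 members, and for 4805 and 4688 of all tested genes. Rescaling each library without Rpph1 and other small RNA genes set the wild-type medians at 24 h to 0.63 for members and -0.25 for all tested genes, 0.88 apart. With that rescaling, 69 members rose and 2 fell there. Without untreated wild-type replicate 2, 69 rose and 2 fell as well. The p-values measure the spread between these libraries.

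**Figure D1:**
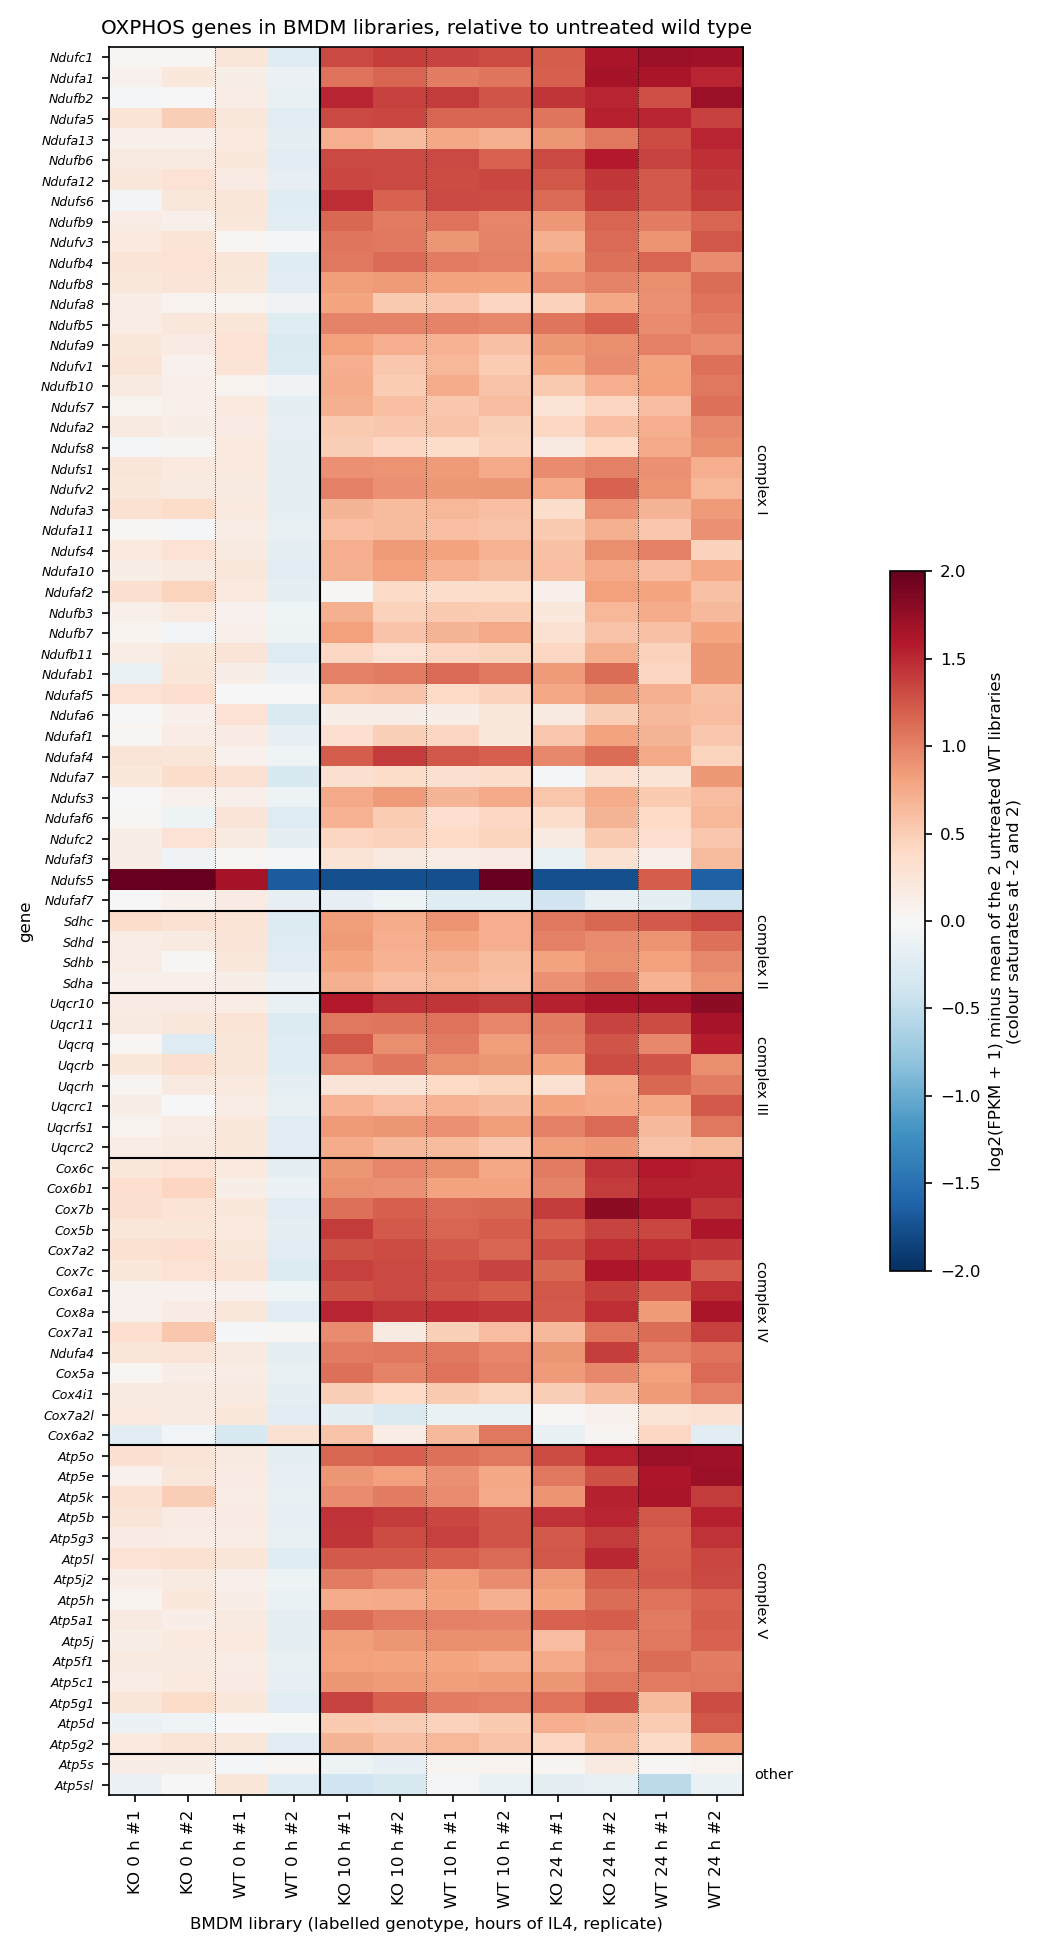
Heat map of 85 of the 86 members (rows, grouped by complex) in the 12 BMDM libraries (columns, by hours of IL4 with labelled knockout left of wild type), coloured by log2(FPKM + 1) minus the mean of the 2 untreated wild-type libraries. The columns at 10 and 24 h are red for most rows, and the row of Ndufs5 alternates between strong blue and strong red, with both untreated KO libraries at the upper end of the scale, which stops at 2.

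Summed over the members, FPKM was 7090 and 7307 in untreated KO libraries and 7125 and 5471 in untreated wild type. At 10 h it was 11947 and 11614 in KO and 11582 and 11233 in wild type, and at 24 h 11445 and 13819 in KO and 13541 and 14660 in wild type. Every treated library lay above every untreated one. As a share of total FPKM the members made up 1.5% to 2.9% over the 12 libraries. Rpph1, the RNA of ribonuclease P, took 11% to 16.5% of total FPKM and so moves the scale of all other genes. Untreated wild-type replicate 2, at 5471 FPKM, was lower than the other 3 untreated libraries. In these bulk samples, fewer cells of a type and less RNA per cell cannot be told apart.

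Complex I was represented by 43 members. Its 7 core subunits, which carry the flavin and the iron-sulphur clusters, all rose in wild type at 24 h, and 5 of them did in KO. Of 29 accessory subunits, 27 rose in wild type, while 21 rose and 1 fell in KO. Of the 7 assembly factors, 5 rose in wild type and 4 in KO. Ndufc1, an accessory subunit of the membrane arm, had the highest difference of the complex in wild type. It had 86.0 and 116 FPKM in KO at 24 h, against 37.7 in each untreated KO library. In wild type it had 122 and 121 FPKM at 24 h, against 43.4 and 31.0 untreated. Treated and untreated libraries did not overlap, with a log2 difference of 1.38 ± 0.16 in KO (limma, adjusted p = 6.8e-05) and 1.70 ± 0.16 in wild type (adjusted p = 1.5e-05).

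Ndufb2, another accessory subunit, was at a similar level after 10 and 24 h. Its FPKM in KO was 31.4 and 32.3 at 0 h, 94.5 and 84.3 at 10 h, and 88.6 and 94.0 at 24 h. In wild type it was 35.8 and 28.9 at 0 h, 86.8 and 78.1 at 10 h, and 79.8 and 108 at 24 h. The difference at 24 h was 1.49 ± 0.15 in KO and 1.5 ± 0.15 in wild type, the highest of the complex in KO. Ndufa1, an accessory subunit encoded on the X chromosome, had 100 and 139 FPKM in KO at 24 h, against 46.1 and 50.1 untreated. In wild type it had 136 and 127 FPKM, against 47.2 and 39.7. It rose by 1.28 ± 0.15 in KO and 1.58 ± 0.15 in wild type.

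Core subunits moved by less than these accessory subunits. Ndufs1, the largest iron-sulphur subunit, rose by 0.75 ± 0.13 in KO and 0.82 ± 0.13 in wild type at 24 h. Ndufv1, which binds NADH, rose by 0.70 ± 0.17 in KO and 0.96 ± 0.17 in wild type. Ndufs3 had 51.8 and 59.2 FPKM in KO at 24 h, against 34.8 and 37.4 untreated, and 51.0 and 54.2 in wild type, against 37.5 and 32.7. It rose by 0.60 ± 0.11 in KO and 0.57 ± 0.11 in wild type. The 2 core subunits that did not pass in KO at 24 h were Ndufs7 (0.26 ± 0.17, adjusted p = 0.225 in limma) and Ndufs8 (0.28 ± 0.14, adjusted p = 0.121). Over the 7 core subunits the median was 0.60 in KO and 0.82 in wild type, and over the 29 accessory subunits it was 0.68 in KO and 0.98 in wild type.

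Ndufaf4, an assembly factor, had its own highest level at 10 h in both genotypes. It had 2.56 and 2.53 FPKM at 0 h, 5.91 and 6.87 at 10 h, and 4.80 and 5.51 at 24 h in KO. In wild type it had 2.17 and 1.82 FPKM at 0 h, 6.09 and 5.82 at 10 h, and 4.08 and 3.06 at 24 h. It rose by 1.06 ± 0.12 in KO and 1.22 ± 0.12 in wild type at 10 h, and its level at 24 h was lower than at 10 h in wild type by the test (-0.61 ± 0.12, limma adjusted p = 0.00512). In KO the same step was -0.26 ± 0.12 (adjusted p = 0.151), and the difference between the steps was 0.35 ± 0.17 (adjusted p = 0.401). Ndufaf5, which hydroxylates an arginine of Ndufs7, rose by 0.51 ± 0.09 in KO and 0.65 ± 0.09 in wild type at 24 h. Ndufaf7, a methyltransferase, gave -0.32 ± 0.13 in KO and -0.30 ± 0.13 in wild type and did not pass in either (limma, adjusted p = 0.0673 and 0.0758).

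Ndufs5, an accessory subunit, could not be read as a level. It had 15.1 and 14 FPKM in untreated KO and under 0.01 FPKM in all 4 treated KO libraries, while in wild type each pair of libraries held 1 value near 0 and 1 between 6.82 and 14.8 FPKM. In TAM it was listed at 0 or 0.0037 FPKM in 6 libraries and at 7.84 and 8.08 in KO replicates 3 and 6. Such values can be failed estimates, and the fall that the test gave in KO at 10 and 24 h rests on them. RefSeq names at least 1 pseudogene of Ndufs5 and of 9 other members (Atp5k, Atp5l, Cox5b, Cox7c, Ndufa12, Ndufab1, Uqcrh, Atp5f1 and Atp5c1), so reads of these genes may have been shared with copies. Without Ndufs5, 66 members rose and 0 fell in KO at 24 h, and 78 rose and 0 fell in wild type.

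The 4 subunits of complex II, or succinate dehydrogenase, which also serves the citric acid cycle, rose in both genotypes at 10 and at 24 h. Sdha had 81.6 and 89.0 FPKM in KO at 24 h, against 46.4 and 46.1 untreated, and 70.2 and 81.4 in wild type, against 46.5 and 39.7. It rose by 0.87 ± 0.11 in KO and 0.80 ± 0.11 in wild type (limma, adjusted p = 0.00013 and 0.00022). Sdhc, a membrane anchor, had 151 and 162 FPKM in KO at 24 h, against 92.9 and 89.5 untreated, and 170 and 182 in wild type, against 87.2 and 59.9. Treated and untreated libraries were apart for both genes. Sdhc rose by 0.77 ± 0.16 in KO and 1.27 ± 0.16 in wild type. The iron-sulphur subunit Sdhb and the anchor Sdhd lay between these values in wild type, at 0.89 ± 0.14 and 1.00 ± 0.15.

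Of the 8 complex III members, 7 rose in KO and 8 in wild type at 24 h. Uqcr10, a small accessory subunit, had the smallest p of all members. It had 280 and 300 FPKM in KO at 24 h, against 107 in each untreated KO library, and 301 and 332 in wild type, against 106 and 86.4. The groups were far apart in each genotype. It rose by 1.43 ± 0.12 in KO (limma, adjusted p = 6.2e-06) and 1.71 ± 0.12 in wild type (adjusted p = 1.6e-06). The core subunits rose by less. Uqcrc2 rose by 0.69 ± 0.13 in KO and 0.60 ± 0.13 in wild type, Uqcrc1 by 0.72 ± 0.15 and 1.00 ± 0.15, and the Rieske iron-sulphur protein Uqcrfs1 by 0.96 ± 0.16 and 0.85 ± 0.16. Uqcrh, the hinge protein, was the member that did not pass in KO (0.39 ± 0.16, limma adjusted p = 0.0742). It had 255 and 346 FPKM in KO at 24 h, against 216 and 236 untreated, and 458 and 427 in wild type, against 237 and 181.

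Complex IV held 14 members in BMDM, of which 11 rose in KO and 12 in wild type at 24 h. Cox6a1 had 174 and 193 FPKM in KO at 24 h, against 77.8 and 77.3 untreated, and 169 and 205 in wild type, against 77.8 and 68.7. It rose by 1.23 ± 0.12 in KO and 1.34 ± 0.12 in wild type (limma, adjusted p = 1.6e-05 and 9e-06). Cox4i1, a large regulatory subunit, had the highest mean level of any member, 525 FPKM over the 12 libraries, and rose by 0.40 ± 0.14 in KO and 0.93 ± 0.14 in wild type. Cox6b1 had 453 and 603 FPKM in KO at 24 h, against 289 and 306 untreated, and 660 and 665 in wild type, against 248 and 209. Its differences were 0.81 ± 0.14 in KO and 1.53 ± 0.14 in wild type. Ndufa4, once assigned to complex I and now known as a complex IV subunit, rose by 0.88 ± 0.16 in KO and 1.05 ± 0.16 in wild type.

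Cox7a2l, known for a part in joining complexes III and IV into supercomplexes, which were not measured here, stood apart from the other subunits. Its FPKM in KO was 223 and 221 at 0 h, 173 and 159 at 10 h, and 199 and 208 at 24 h. In wild type it was 227 and 168 at 0 h, 179 at 10 h in each library, and 236 and 241 at 24 h. Both KO libraries at 10 h lay below both untreated KO libraries, as they did for 3360 of the 10510 tested genes. Cox7a2l fell there by 0.42 ± 0.13 (limma, adjusted p = 0.03). In wild type at 10 h the difference was -0.13 ± 0.13 and did not pass, and the difference between the 2 genotypes was not called by the interaction test. Cox7a1, an isoform known from heart and skeletal muscle, had 9.34 and 13 FPKM in KO at 24 h, against 7.34 and 8.51 untreated, and 13.2 and 16 in wild type, against 5.46 and 5.70. It rose in wild type (1.24 ± 0.22, limma adjusted p = 0.00106) and gave 0.43 ± 0.22 in KO (adjusted p = 0.138). Cox6a2, likewise a muscle isoform, had 0.627 to 3.16 FPKM over the wild-type libraries and rose at 10 h alone, by 0.85 ± 0.25 in wild type (limma, adjusted p = 0.0212).

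Complex V held 15 members, of which 14 rose in KO and 15 in wild type at 24 h. The 5 subunits of the F1 head all rose in both. Atp5b, the catalytic beta subunit, had 464 and 492 FPKM in KO at 24 h, against 204 and 191 untreated, and 406 and 505 in wild type, against 191 and 152. It rose by 1.27 ± 0.14 in KO and 1.40 ± 0.14 in wild type. Atp5e, the epsilon subunit, had 411 and 480 FPKM in KO at 24 h, against 211 and 231 untreated, and 613 and 648 in wild type, against 223 and 176. The 2 wild-type libraries at 24 h were above the 2 KO libraries, as they were for 1826 of the 10510 tested genes. Atp5e rose by 1.01 ± 0.14 in KO and 1.67 ± 0.14 in wild type.

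Atp5g1, Atp5g2 and Atp5g3 are 3 genes that encode the same mature c subunit of the proton-turning ring. At 24 h Atp5g3 rose by 1.16 ± 0.13 in KO and 1.32 ± 0.13 in wild type, and Atp5g1 rose by 0.86 ± 0.20 and 0.98 ± 0.20. Atp5g2 gave 0.30 ± 0.18 in KO (limma, adjusted p = 0.215) and rose by 0.61 ± 0.18 in wild type (adjusted p = 0.0176). All 7 subunits of the stalk and membrane part rose in both genotypes. Atp5o, the stalk subunit OSCP that holds the F1 head, had 174 and 207 FPKM in KO at 24 h, against 87.8 and 84.3 untreated, and 234 and 230 in wild type, against 79.2 and 61.9. It rose by 1.13 ± 0.13 in KO and 1.71 ± 0.13 in wild type (limma, adjusted p = 5.6e-05 and 2.8e-06). Atp5s and Atp5sl carry an ATP synthase symbol but are not subunits of the enzyme, and neither passed at 24 h, at 0.00 ± 0.09 and -0.11 ± 0.16 in KO and 0.04 ± 0.09 and -0.33 ± 0.16 in wild type.

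At 10 h the members that rose most included small subunits of several complexes. Cox8a, a small subunit of complex IV, had 454 and 425 FPKM in KO at 10 h, against 167 and 176 untreated, and 432 and 420 in wild type, against 184 and 134. It rose by 1.35 ± 0.23 in KO and 1.43 ± 0.23 in wild type. Atp5g3 of the c ring had 231 and 211 FPKM in KO at 10 h, against 94.8 and 94 untreated, and 220 and 205 in wild type, against 94.3 and 76.3, with differences of 1.22 ± 0.13 and 1.31 ± 0.13. Treated libraries lay above untreated ones for both genes. Ndufs6, a zinc-binding subunit of complex I, rose by 1.24 ± 0.17 in KO and 1.31 ± 0.17 in wild type. Ndufa12, an accessory subunit that replaces an assembly factor late in the building of the complex, had 109 and 108 FPKM in KO at 10 h, against 49.9 and 52.2 untreated, and 106 and 109 in wild type, against 47.5 and 37.9. It rose by 1.07 ± 0.12 in KO and 1.32 ± 0.12 in wild type. At the low end, Ndufc2 had 106 and 109 FPKM in KO at 10 h, against 86.2 and 96.7 untreated, and 104 and 107 in wild type, against 89.7 and 69.1. It gave 0.23 ± 0.15 in KO (limma, adjusted p = 0.254) and rose by 0.42 ± 0.15 in wild type (adjusted p = 0.0486). Atp5s fell in KO at 10 h by 0.25 ± 0.09, with 1.23 and 1.15 FPKM, against 1.62 and 1.61 untreated.

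Further members of complexes I and IV filled the range at 24 h. Cox6c had 284 and 376 FPKM in KO at 24 h, against 161 and 168 untreated, and 414 and 405 in wild type, against 158 and 120, and rose by 0.99 ± 0.16 in KO and 1.57 ± 0.16 in wild type. Cox7b, a small subunit of complex IV, had 143 and 186 FPKM in KO at 24 h, against 66.6 and 64.8 untreated, and 169 and 145 in wild type, against 61.6 and 46.2. It rose by 1.30 ± 0.16 in KO and 1.53 ± 0.16 in wild type. Every treated value of both genes lay above the untreated ones. Cox4i1 had 533 and 597 FPKM in KO at 24 h, against 429 and 428 untreated, and 682 and 764 in wild type, against 429 and 335. Among members that rose least, the assembly factor Ndufaf6 had 3.48 and 4.63 FPKM in KO at 24 h, against 2.63 and 2.28 untreated, and 3.66 and 4.56 in wild type, against 3.21 and 1.94. Its differences were 0.54 ± 0.17 in KO and 0.53 ± 0.17 in wild type. The accessory subunits Ndufb7, Ndufb10 and Ndufa8 rose in KO by 0.42 ± 0.13, 0.49 ± 0.13 and 0.51 ± 0.13, and in wild type by 0.69 ± 0.13, 0.94 ± 0.13 and 1.00 ± 0.13.

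**Figure D2:**
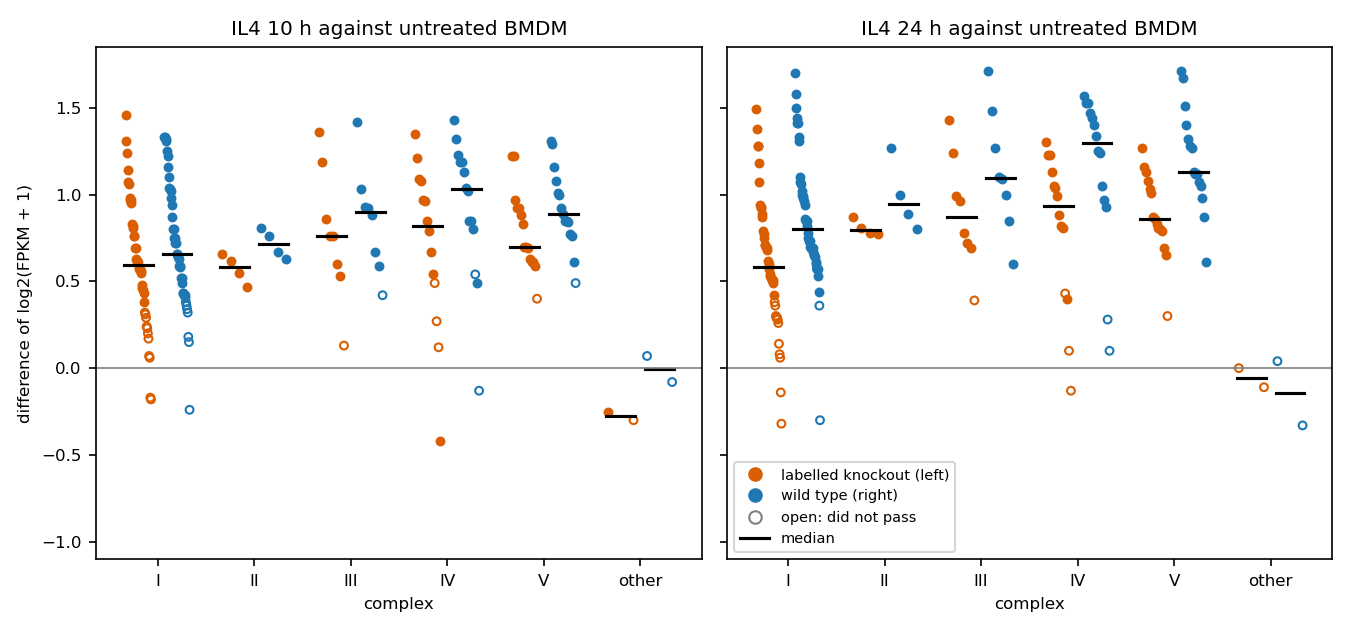
Difference of log2(FPKM + 1) between IL4 at 10 h (left panel) or 24 h (right panel) and untreated BMDM for each member, by complex, with labelled knockout left of wild type, filled points for members that passed and black lines for medians. Ndufs5 is left out. At 24 h the medians of complexes III, IV and V were 0.87, 0.93 and 0.86 in KO and 1.09, 1.29 and 1.13 in wild type.

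Between 10 and 24 h of IL4, 0 members rose and 0 fell in KO with limma, where 12.1% of all tested genes rose and 10.9% fell, and 4 members and 36.6% of all tested genes had an unadjusted p under 0.05. In wild type 13 rose and 1 fell, where 11.6% of all tested genes rose and 14.3% fell. The 13 were Atp5e, Atp5o and Atp5k of complex V, Cox6b1, Cox6c, Cox4i1, Cox7a1 and Cox7a2l of complex IV, Uqcrh of complex III, and Ndufa1, Ndufa8, Ndufa13 and Ndufs8 of complex I. Atp5e had the highest difference, at 0.82 ± 0.14 (limma, adjusted p = 0.0021), and Ndufs8 rose by 0.44 ± 0.14 (adjusted p = 0.0387). Ndufa13, an accessory subunit also known as Grim19, had 98.0 and 114 FPKM at 24 h, against 68.0 and 64.5 at 10 h, and rose by 0.67 ± 0.13. The count of 14 in wild type became 6 without wild-type 10 h replicate 1 and 4 without replicate 2. It became 30 with median-of-ratios scaling (29 higher and 1 lower) and 22 after rescaling without small RNA genes (17 higher and 5 lower, with the median of all tested genes at -0.15). The KO count became 1 without KO 10 h replicate 1 and 2 without KO 24 h replicate 1. It became 4 with median-of-ratios scaling (4 higher and 0 lower), 7 with quantile normalisation (7 higher and 0 lower), 6 after rescaling (5 higher and 1 lower) and 6 with the compared libraries alone (5 higher and 1 lower). In the test of the difference between the genotypes in this step, added after the counts were seen, 0 members passed and 5 had an unadjusted p under 0.05, beside 0.0571% and 13.9% of all tested genes.

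**Figure D3:**
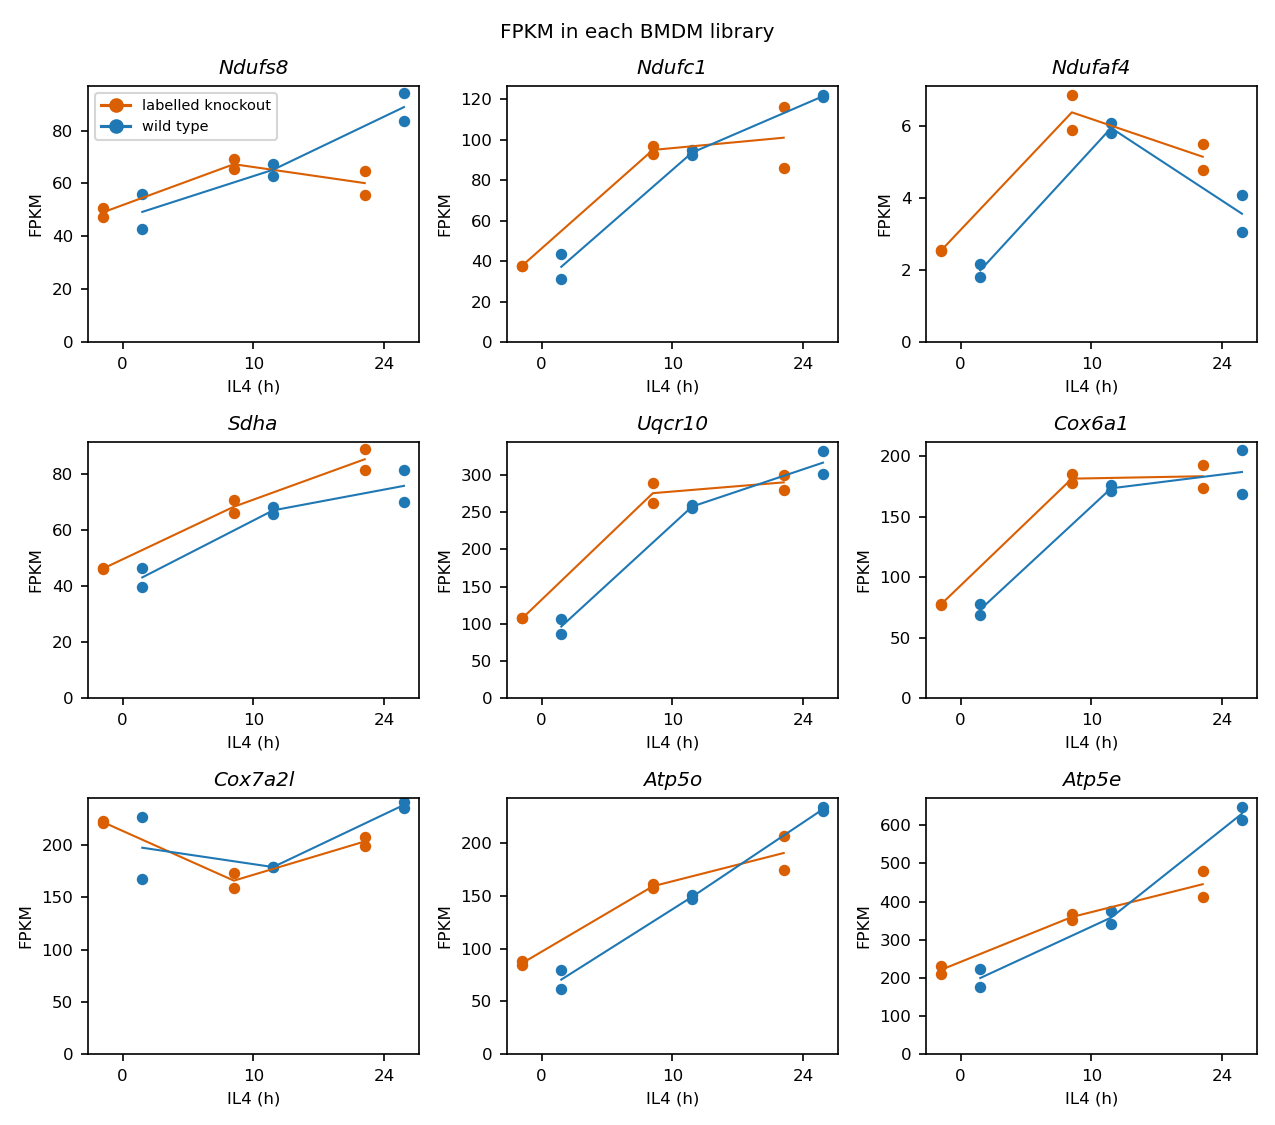
FPKM of 9 members (panels) in each BMDM library against hours of IL4, with labelled knockout (orange) left of wild type (blue) and lines through the means of 2 libraries. Ndufaf4 peaks at 10 h in both genotypes, and the wild-type points of Ndufs8 and Atp5e at 24 h (83.5 and 94.3, and 613 and 648 FPKM) lie above those of the labelled knockout.

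Few members passed between the genotypes. In untreated BMDM 0 of 86 members passed between KO and wild type with limma, where 1.89% of all tested genes were higher and 0.809% lower in KO. The median over members was 0.16, beside 0.06 over all tested genes, and 4 members and 14.5% of all tested genes had an unadjusted p under 0.05. Without untreated wild-type replicate 1, 13 members passed as higher in KO. At 10 h 0 members passed (1.75% of all tested genes higher and 1.09% lower), 1 had an unadjusted p under 0.05 (10.6% of all tested genes had), and the median was 0.04. SEs of the members other than Ndufs5 ran from 0.09 to 0.25, with a median of 0.15.

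At 24 h Ndufs8, a core subunit that carries iron-sulphur clusters of complex I, was the 1 member that passed, where 5.29% of all tested genes were higher and 2.14% lower in KO. It had 55.6 and 64.7 FPKM in KO, against 83.5 and 94.3 in wild type. Both KO libraries lay below both wild-type ones, as they did for 1826 of the 10510 tested genes. The difference for Ndufs8 was -0.56 ± 0.14 (limma, adjusted p = 0.0367). Next in p was Atp5e, with -0.50 ± 0.14 (adjusted p = 0.0545), and the highest positive difference was that of Ndufaf4, with 0.44 ± 0.12 (adjusted p = 0.0589). In all, 12 members had an unadjusted p under 0.05 (25.3% of all tested genes had), and the median over members was -0.09, beside 0.04 over all tested genes. Leaving out wild-type 24 h replicate 2, KO replicate 1 or KO replicate 2 left 0 calls, and leaving out wild-type replicate 1 gave 5. There were also 0 calls with the replicate numbers as a block, with no filter on low values or with the compared libraries alone. The neutrophil list summed to 55.1 and 91.4 FPKM in KO at 24 h, against 138 and 131 in wild type, with 5 of its 6 markers at a mean of at least 1 FPKM and none at 0 in every library. Its part in the differences at 24 h was not tested. Median-of-ratios scaling gave 9 lower, and rescaling without small RNA genes gave 5 higher and 5 lower, with the median of all tested genes at 0.13. Averaged over the 3 times, the assembly factors Ndufaf4 and Ndufaf5 passed as higher in KO, at 0.26 ± 0.07 and 0.21 ± 0.05 (limma, adjusted p = 0.0489 and 0.0274), where 7.06% of all tested genes were higher and 2.88% lower. Ndufaf5 had 1.51 and 1.58 FPKM in KO and 1.04 and 1.05 in wild type untreated, 1.99 and 2.03 against 1.7 and 1.8 at 10 h, and 2.49 and 2.78 against 2.34 and 2.07 at 24 h. Each of these KO values lay above both wild-type values of its time. The same held for 2927 of the 10510 tested genes untreated, 3014 at 10 h and 3485 at 24 h. The count of 2 averaged over the 3 times became 0 higher and 1 lower with median-of-ratios scaling or after rescaling. It became 0 higher and 3 lower with quantile normalisation, and 8 without untreated wild-type replicate 1. It became 0 without either untreated KO library, without any 1 of the 4 libraries at 10 h or without KO 24 h replicate 2, and 1 without untreated wild-type replicate 2 or KO 24 h replicate 1.

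The IL4 response at 24 h, set against untreated cells of the same genotype, was higher in KO than in wild type for 8 of the 86 members and for 47.8% of all tested genes, and no member passed the interaction test. Cox6a2 had a difference of 0.00. The median of these differences was -0.27, beside -0.02 over all tested genes, of which 0.295% passed. An unadjusted p under 0.05 was found for 17 members, all lower in KO, and for 18.2% of all tested genes. Cox6b1 was first among them at -0.72 ± 0.20 (limma, adjusted p = 0.14), then Atp5e at -0.66 ± 0.20 (adjusted p = 0.151) and Atp5o at -0.58 ± 0.18 (adjusted p = 0.163). All of these share the untreated wild-type libraries. Without replicate 1 of that group, 16 members passed as lower, and without replicate 2 none did. After rescaling without small RNA genes the median was -0.02, beside 0.19 over all tested genes. At 10 h 0 members passed, 2 had an unadjusted p under 0.05 (4.07% of all tested genes had), and the median was -0.14, beside -0.05. Of all tested genes, 0.0951% passed at 10 h.

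The TAM libraries fell into sets by their number. Libraries 1 to 4 (KO 3 and 4, wild type 1 and 2) had neutrophil sums of 6720 and 5650 FPKM in KO, against 7970 and 17900 in wild type, and libraries 5 to 8 (KO 5 and 6, wild type 7 and 8) had 1560 and 1130 FPKM in KO, against 1160 and 918 in wild type. The ribosomal protein gene Rpl34, chosen after its values were seen, had at most 2.99 FPKM in libraries 1 to 4 and at least 129 FPKM in libraries 5 to 8. The labels do not name these sets as a batch, and each holds 2 libraries of each genotype.

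In TAM 85 of the 87 members passed the filter on low values, and Ndufs5 and Atp5s did not. None differed between KO and wild type with limma, as 5 genes each way did among 9897 tested (0.0505% higher and 0.0505% lower). An unadjusted p under 0.05 was found for 5 members and 16.9% of all tested genes. The median over members was 0.11, beside 0.09 over all tested genes, and became -0.12 after quantile normalisation and -0.08 after rescaling without small RNA genes. SEs ran from 0.10 to 0.50, with a median of 0.18. The summed FPKM of the members was 7889, 7980, 6516 and 5860 in KO, against 7123, 6250, 6212 and 6004 in wild type, and the ranges overlapped. Within libraries 1 to 4 the difference was positive for 74 of the 85 members and 62.1% of all tested genes, with medians of 0.25 and 0.09. Within libraries 5 to 8 it was positive for 43 members and 58.7% of all tested genes, with medians of 0.01 and 0.09. Whether the sets differ was not tested. With a term for the sets, an alternative added after the data were seen, 0 members passed and 10 had an unadjusted p under 0.05 (0.313% and 23.5% of all tested genes).

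Ndufa9, an accessory subunit of complex I, had the smallest p in TAM. It had 44.6, 43.0, 40.2 and 48.0 FPKM in KO, against 28.6, 28.4, 34.8 and 33.0 in wild type. All 4 KO values lay above the wild-type ones, and the difference was 0.48 ± 0.12 (limma, adjusted p = 0.143). It was 0.60 within libraries 1 to 4 and 0.36 within libraries 5 to 8, and the adjusted p was 0.0771 with the term for the sets. In all, 6 members had every KO library above every wild-type library (9.13% of all tested genes had), namely Ndufa9, Uqcrb, Ndufb3, Uqcrc2, Ndufs6 and Ndufaf5. Ndufs4 had 33.5, 32.9, 24.6 and 21.0 FPKM in KO, against 20.6, 18.0, 22 and 14.6 in wild type, and the ranges overlapped. Its difference was 0.54 ± 0.19 (adjusted p = 0.223). Uqcrc2, a core subunit of complex III, had 59.9, 59.2, 55.8 and 55.9 FPKM in KO, against 51.8, 50.6, 45.2 and 43.7 in wild type (0.27 ± 0.11, limma adjusted p = 0.284).

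In the other complexes, Sdhd had 98, 93.6, 103 and 78.1 FPKM in KO, against 81.1, 78, 93.1 and 64.3 in wild type. The ranges overlapped, and the difference was 0.24 ± 0.16 (limma, adjusted p = 0.451). Cox5a, a subunit of complex IV that binds a thyroid hormone metabolite, had 296, 281, 304 and 228 FPKM in KO, against 240, 230, 222 and 194 in wild type, with a difference of 0.32 ± 0.15 (limma, adjusted p = 0.335). Atp5f1, the stalk subunit b of complex V, had 146, 133, 148 and 113 FPKM in KO, against 116, 112, 101 and 89.1 in wild type, with a difference of 0.37 ± 0.15 (limma, adjusted p = 0.27). In each of these 3 genes, KO replicate 6 was the 1 KO library within the wild-type range.

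Of members described above in BMDM, Ndufs8 averaged 30.9 ± 8.62 FPKM in KO and 31.6 ± 7.01 in wild type, Uqcr10 32.4 ± 6.01 and 31.4 ± 6.18, and Atp5o 125 ± 21.8 and 119 ± 9.48 (SD, n = 4 each). None of these passed, and each difference of means was smaller than the SDs. The tissue-restricted isoforms of complex IV stood near the limit of 1 FPKM. Cox4i2, known from lung and from hypoxia, had 1.72, 1.22, 2.88 and 5.30 FPKM in KO, against 2.93, 1.21, 4.73 and 2.16 in wild type. Cox6b2, known from testis, had 1.5, 4.41, 0 and 0.995 FPKM, against 0.904, 2.36, 1.16 and 3.49. Cox7a1 had 1.03, 0.944, 0 and 1.24 FPKM in KO, against 1.83, 0.584, 1.20 and 3.71 in wild type, the lowest difference of any member (-0.60 ± 0.37, limma adjusted p = 0.426). The values of 0 for Cox6b2 and Cox7a1 came from KO replicate 5, where 11138 genes were at 0, against 8501 to 9294 in the others. The highest wild-type values of both came from replicate 8, which also had the highest fibroblast sum (235 FPKM) and erythroid sum (234 FPKM). Of the other cell types, the endothelial list summed to 22.6, 20.7, 49.7 and 50.5 FPKM in KO, against 10.5, 8.21, 19.3 and 5.41 in wild type, so that every KO library lay above every wild-type library. Of its 5 markers, 2 had a mean of at least 1 FPKM and none was at 0 in every library. The fibroblast list summed to 8.93 to 27.6 FPKM in KO and 21.8 to 235 in wild type, and the erythroid list to 8.04 to 62.0 in KO and 28.3 to 234 in wild type. Their part in these values was not tested.

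**Figure D4:**
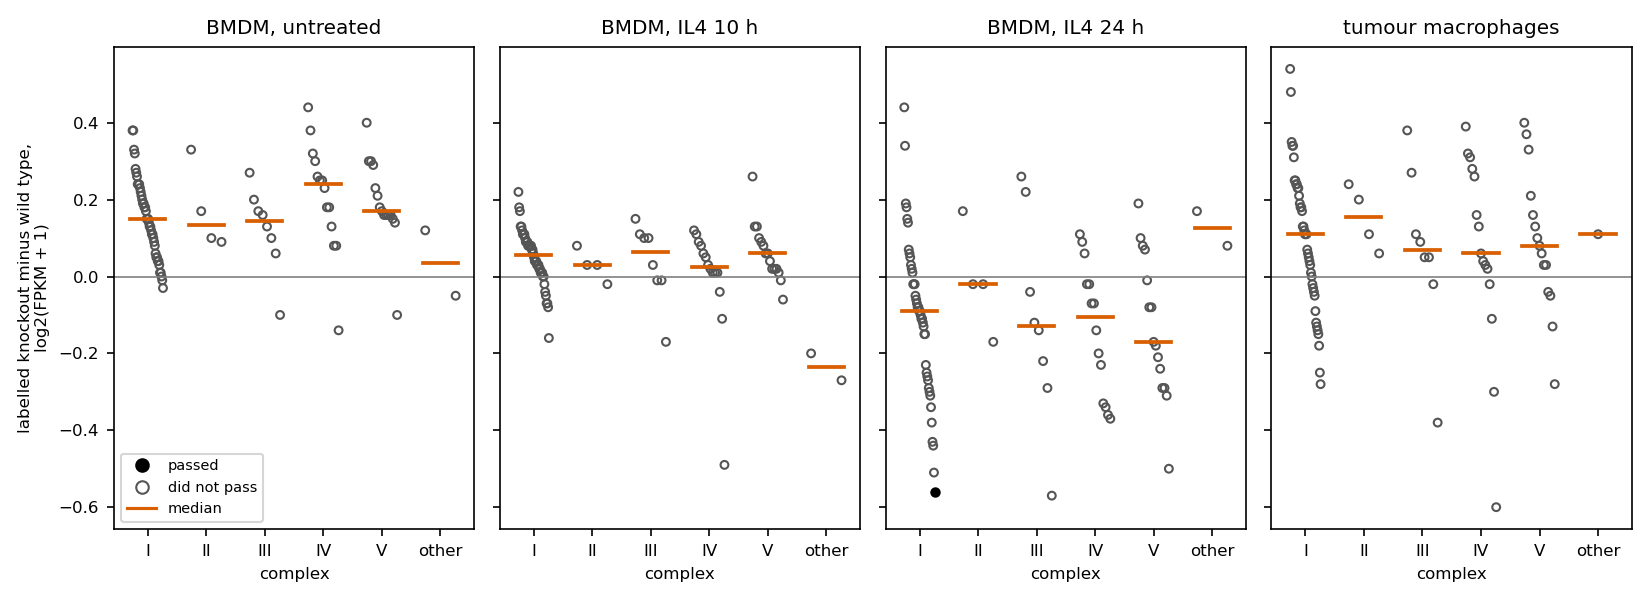
Difference of log2(FPKM + 1), labelled knockout minus wild type, for each member by complex in untreated BMDM, BMDM at 10 h and 24 h of IL4, and tumour macrophages, with orange lines for medians. Ndufs5 is left out. The 1 filled point, at 24 h, is Ndufs8 at -0.56, and all other points are open because they did not pass.

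**Figure D5:**
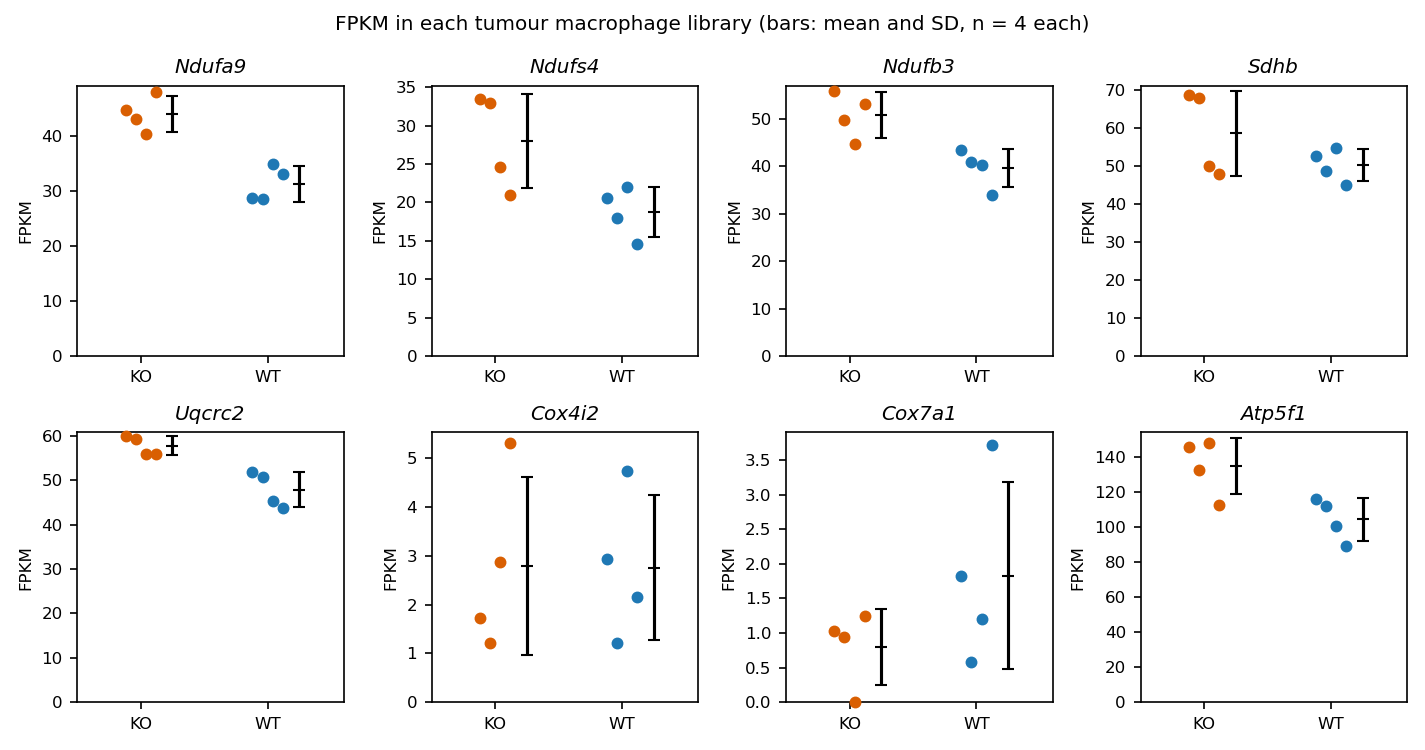
FPKM of 8 members (panels) in each tumour macrophage library, labelled knockout left of wild type, with mean and SD (n = 4 each). The 2 groups are apart for Ndufa9, Ndufb3 and Uqcrc2 and overlap in the other panels, and none of the 8 passed the test.

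Genes that work with the complexes were counted by list, beside the 26.5% of all tested genes that rose and 17.1% that fell in KO at 24 h, and 29.7% and 20.3% in wild type. These lists were chosen with earlier results of the series known. Of 11 partner genes, which include electron carriers, exchangers and genes associated with ATP synthase, 11 rose in KO and 11 in wild type at 24 h. Cycs, or cytochrome c, had 40.2 and 53.7 FPKM in KO at 24 h, against 12.3 and 12.6 untreated, and 41.9 and 34.5 in wild type, against 11.5 and 8.08. It rose by 1.82 ± 0.17 in KO and 1.87 ± 0.17 in wild type. Usmg5, a small subunit associated with ATP synthase, rose by 1.48 ± 0.16 in KO and 1.45 ± 0.16 in wild type. Its symbol lies outside the pattern used for the members. The counts by complex therefore cover the symbols taken and not every nuclear-encoded subunit. Of 32 assembly factors of the complexes outside the Nduf symbols, 17 rose in KO and 18 in wild type, among them Tmem126b of complex I (1.01 ± 0.11 and 1.14 ± 0.11). Of 12 genes of ubiquinone synthesis, 5 rose and 1 fell in KO and 8 rose and 1 fell in wild type.

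Of 13 general mitochondrial genes (among them genes of import, chaperones, porins and cristae), 12 rose in KO and 12 in wild type at 24 h. Chchd3, a cristae protein, rose by 1.02 ± 0.12 in KO and 1.27 ± 0.12 in wild type. Of 76 proteins of the mitochondrial ribosome, 38 rose in KO and 58 in wild type. Of 81 cytosolic ribosomal proteins, 12 rose in KO and 67 in wild type, with medians of 0.20 and 0.73. No gene of that list passed the interaction test at 24 h, whose median was -0.52, beside -0.02 over all tested genes. Of the 81, 42 had an unadjusted p under 0.05 (18.2% of all tested genes had) and 4 had a positive difference (47.8% of all tested genes had). These differences too share the untreated wild-type libraries. Of 11 genes that copy and read mitochondrial DNA, 3 rose and 1 fell in KO and 5 rose and 1 fell in wild type, so that the KO count was near the share of all tested genes that rose. Polg, the polymerase, fell in both, by 0.67 ± 0.13 in KO and 0.50 ± 0.13 in wild type.

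Regulators of respiratory genes differed among themselves. Ppargc1b, a coactivator of ERR alpha, had 2.20 and 2.14 FPKM in KO at 24 h, against 0.32 and 0.185 untreated, and 2.63 and 3.72 in wild type, against 0.229 and 0.387. It rose by 1.34 ± 0.13 in KO and 1.66 ± 0.13 in wild type (limma, adjusted p = 1.5e-05 and 3.2e-06). Esrra, the gene of ERR alpha, had 20 and 17.9 FPKM in KO at 24 h, against 12.9 and 12.7 untreated, and 22.4 and 31.2 in wild type, against 13.6 and 10.9. It rose by 0.53 ± 0.15 in KO and 1.06 ± 0.15 in wild type (limma, adjusted p = 0.0142 and 2.0e-04). Myc had 2.60 and 3.11 FPKM in KO at 24 h, against 0.201 and 0.349 untreated, and rose by 1.6 ± 0.14 in KO and 1.69 ± 0.14 in wild type. Nrf1 had 7.91 and 7.56 FPKM in KO at 24 h, against 8.16 in each untreated library, and 8.05 and 7.99 in wild type, against 8.02 and 7.18. In all, 4 of the 10 tested regulators rose and 1 fell in KO, and 4 rose and 2 fell in wild type, which at 10 genes is little apart from the shares of all tested genes given above. In TAM no gene of any of these lists passed. Cycs had 22.8 to 34.5 FPKM in KO there, against 11.8 to 19.9 in wild type. Pparg of the regulators had 6.9 to 15.4 FPKM, against 1.29 to 5.3. Every KO library lay above every wild-type one for 2 of the 11 partner genes and 1 of the 9 tested regulators, and 0 of either list lay wholly below. The same held for 9.13% of all tested genes. The highest differences of these lists were 0.78 and 1.58.

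Markers of other cell types moved with the groups in BMDM. The adipocyte list (5 genes, Cidea at 0) summed to at most 0.161 FPKM in untreated libraries and to 14.7 to 33.4 FPKM in treated ones, with 1 of the 5 at a mean of at least 1 FPKM. The list of T and NK cell genes summed to 13 in each untreated KO library and to 4.88 and 4.56 in untreated wild type, and to 0.555 to 3.57 in treated libraries. Of its 7 genes, 1 had a mean of at least 1 FPKM, and Cd3g was at 0. The fibroblast list summed to 9.15 to 22.6 FPKM in KO libraries, against 2.37 to 4.90 in wild type, with 3 of its 6 genes at a mean of at least 1 FPKM. The macrophage list summed to 1220 and 1200 in KO and 1170 and 1430 in wild type at 24 h, and to 1480 and 1470 in KO and 1540 and 1390 in wild type untreated. Their part in the results on the complexes was not tested.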

How the data were processed

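RNA was sequenced from 12 BMDM libraries after ribosomal RNA depletion and from 8 TAM libraries after poly(A) selection, per the labels' protocols. The authors deposited 1 table of FPKM values per cell type, made from reads mapped to mm9. The submitters' processing notes name TopHat, Bowtie2, Cuffdiff and MACS, with versions not given in the sources used here. The TAM table does not name its unit, which was taken as FPKM from those notes and its values. The tables hold no counts, so the number of reads is unknown. Relative depth was estimated from the lowest values, taken as 1 fragment each. It ran from 0.877 to 1.4 in BMDM and from 0.651 to 1.53 in TAM, where the first wild-type library of each table was set to 1. Each has 23309 rows, and 2 symbols occur more than once.

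Values were taken as log2(FPKM + 1). Genes with at least 1 FPKM in 2 BMDM or 4 TAM libraries were tested with limma 3.58.1 in R 4.3.3, all groups of a table in one fit with no covariate (6 residual degrees of freedom in each table, and 10.3 in BMDM and 8.54 in TAM with those limma borrows across genes). The threshold was an adjusted p (Benjamini-Hochberg, over all tested genes) of 0.05. The script was tested on simulated data. The members and lists were chosen with earlier results of these data known. Values per library were given, by rule, for the up to 5 members with the highest and up to 5 with the lowest difference among calls, the smallest p in each complex, tissue-restricted isoforms, Tet2 and up to 4 genes of each other list. Members named for their role alone were chosen after their values were seen, and for members at the low end of the calls the difference alone is given. Alternatives were the pseudocount, filters, scalings, a replicate block, fits of the compared libraries alone, a term for 2 sets of TAM libraries (added after the data were seen) and leaving out each library. Promoter windows came from RefSeq. Python 3.11.15, pandas 2.3.3, numpy 2.4.6 and matplotlib 3.10.9 were used. A member and part of the genotype of the tumour line are not reported here by name.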

Additional observations from a re-analysis of the deposited data

Results flagged for a closer look

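Ndufs5 in TAM wild-type replicate 1 stood at 0.0037 FPKM while the other 3 wild-type libraries were listed at 0, so its gap to them made up the whole range of the group. That holds for any value above 0 beside 3 values at 0, and 0.0037 FPKM is near 0 and cannot be read as a level. The check covered 16 members in 32 groups, and chance flags about 1 in 20 groups.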

How the results depend on the processing

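Counts of members under IL4 against untreated cells kept within 1.5 times under every alternative run. Leaving out 1 library gave 48 to 55 calls in KO and 56 to 76 in wild type at 10 h, and 53 to 68 in KO and 71 to 80 in wild type at 24 h. Of the calls at 24 h, 52 of 67 in KO and 67 of 78 in wild type passed in every setting. The step between 10 and 24 h gave 4 calls in KO with median-of-ratios scaling, 7 with quantile normalisation, 6 rescaled without small RNA genes, 6 with the compared libraries alone and 0 to 2 with 1 library left out. In wild type it gave 8 with no filter on low values, 30 with median-of-ratios scaling, 22 rescaled and 4 to 13 with 1 library left out. Between the genotypes, leaving out 1 library gave 0 to 13 calls untreated, 0 to 5 at 24 h, 0 to 8 averaged over times and 0 to 16 for the interaction at 24 h. At 24 h there were 0 calls with no filter or the compared libraries alone, 9 with median-of-ratios scaling, 6 with quantile normalisation and 10 rescaled. Averaged over times there was 1 call with no filter, with a mean of at least 1 FPKM, with 1 FPKM in every library, with median-of-ratios scaling or rescaled, and there were 3 with quantile normalisation. The cause was not tested.

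In BMDM, 15 correlations between the deviations of same-numbered libraries from their group means ran from -0.141 to 0.149. With 2 libraries a group, they cannot decide whether the replicate numbers mark pairs. With the replicate numbers as a block, 9 members passed in wild type between 10 and 24 h, 0 between genotypes at 24 h and 1 averaged over times. In TAM, no paired analysis was possible because the groups share no replicate number, and 0 members passed with a term for libraries 1 to 4 and 5 to 8. Without read counts, the precision of low values is not known.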
